A study of Mus musculus with 4 samples.

Results

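In chondrocyte cultures labelled as Hdac3 knockout (Cre) and wild type (GFP), peaks of H3K27ac at closely paired gene ends numbered 679 of 13130 in the Cre library and 709 of 12873 for GFP. They made up 5.17% and 5.51% of the lists, or 1388 of 26003 peaks in all. A peak was counted when its summit, the position of highest signal, lay within 1 kb of the annotated ends of 2 or more different protein-coding genes in mm10. Either end of a gene was accepted, so pairs of starts, pairs of finishes and mixed pairs all entered. The summits of 661 Cre and 693 GFP peaks had 2 genes within 1 kb, and those of 18 Cre and 16 GFP peaks had 3. They were set against the 2670 Cre and 2739 GFP peaks whose summit lay within 1 kb of the end of a single gene, called single-end peaks here. At the edge of the rule, the farther gene lay 1000 bp from the summit at Gart/Son in the Cre list and at Smim19/Slc20a2 in the GFP list, and it lay 1004 bp away at Harbi1/Atg13 (Cre) and 1001 bp away at Gspt1/LOC115488671 (GFP), which were left out.

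Chromatin immunoprecipitation for H3K27ac was sequenced in 1 library of each culture, on primary C57Bl/6 chondrocytes kept ex vivo in micromass culture, where cells plated as a dense spot lay down cartilage matrix. The Cre library came from cells given adenovirus encoding Cre recombinase, with the genotype label hdac3-knockout, and the GFP library came from cells given the GFP control adenovirus, with the genotype label wild-type. The labels do not give the Hdac3 allele, the number of animals pooled, or the share of cells that took up virus, and loss of Hdac3 itself was not measured in these lists. With 1 library a group no difference between the cultures has a replicate check, no test was possible, and culture, virus and library cannot be told apart.

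The lists were peak calls with 7 to 63 fragments at the summit in the Cre library and 7 to 58 in the GFP library. All 11 chondrocyte marker genes, among them Col2a1 and Acan, had peaks within 10 kb in both libraries. Of 15 markers of leukocytes, endothelium, muscle, bone and fat, 0 had such peaks in the Cre library and 1, the macrophage gene Cd68, in the GFP library (3 peaks). The part of such cells in the results below was not tested.

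At a divergent, or bidirectional, promoter a pair of genes is transcribed away from a short stretch of shared DNA. In mammals such stretches are usually CpG islands, they often lack a TATA box, and many of the genes serve every cell, in translation, respiration, splicing, DNA replication and DNA repair. H3K27ac marks active promoters and enhancers, where it lies on the nucleosomes beside the open site at which transcription starts. HDAC3 removes histone acetylation as the catalytic part of the NCoR and SMRT corepressor complexes.

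The stretches between the starts of 8 divergent pairs are printed to show what lies between the paired genes, chosen from the pairs with the highest fold and from the named gene groups, with 5 shared by both libraries first. Each is given in full on the + strand of GRCm38.p6 (mm10 coordinates), from RefSeq promoter windows of 250 bases before to 50 after each start. Capitals mark a GC box (letters GGGCGG), an ETS site (letters CCGGAAG) or a CCAAT box, read on either strand.
Mrpl46/Mrps11, chr7:78783090-78783130: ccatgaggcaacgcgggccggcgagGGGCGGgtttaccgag
Atp6v1d/Eif2s1, chr12:78862009-78862071: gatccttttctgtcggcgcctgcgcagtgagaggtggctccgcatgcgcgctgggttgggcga
Ftsj3/Psmc5, chr11:106256085-106256184: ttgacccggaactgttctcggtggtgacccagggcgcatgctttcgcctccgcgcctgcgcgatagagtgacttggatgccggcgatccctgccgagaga
Cbx5/Hnrnpa1, chr15:103239905-103239942: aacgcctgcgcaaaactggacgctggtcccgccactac
Plekhj1/Sf3a2, chr10:80798627-80798734: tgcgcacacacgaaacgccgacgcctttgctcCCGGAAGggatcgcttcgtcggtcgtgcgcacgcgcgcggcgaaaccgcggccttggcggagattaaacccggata
Mrps12/Sars2 (Cre alone), chr7:28741822-28741956: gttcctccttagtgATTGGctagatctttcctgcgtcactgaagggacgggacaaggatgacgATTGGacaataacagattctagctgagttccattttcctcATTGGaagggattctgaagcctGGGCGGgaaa
Rlbp1/Fanci (GFP alone), chr7:79392251-79392311: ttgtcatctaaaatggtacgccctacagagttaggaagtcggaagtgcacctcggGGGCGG
Mrpl40/Hira (GFP alone), chr16:18876638-18876749: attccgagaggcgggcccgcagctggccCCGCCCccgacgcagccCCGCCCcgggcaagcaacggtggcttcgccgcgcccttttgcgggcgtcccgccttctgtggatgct

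The 5 shared stretches printed were 38 to 108 bases long with 63.2% to 73.2% G and C, and they do not show the full range. All 80 stretches read at pairs with overlapping peaks, with bodies apart and starts at most 250 bp apart, had a median of 63.1% (59.9 to 66.0). Those not printed include Brca1/Nbr1 with 50.3% and Timm9/2700049A03Rik with 37.4%. The 206 such stretches at pairs with no peak had a median of 65.1% (63.5 to 66.9). The Cbx5/Hnrnpa1 stretch, between the genes for heterochromatin protein HP1α and a splicing regulator, was the shortest and still held 4 CpG dinucleotides, and the Plekhj1/Sf3a2 stretch, beside a gene for a U2 snRNP subunit, held 20. The Mrps12/Sars2 stretch, between genes for a mitochondrial ribosomal protein and the mitochondrial seryl-tRNA synthetase, had 48.1% G and C, 3 CCAAT boxes and 1 GC box. No match to these letters was found in the stretches at Atp6v1d/Eif2s1, Ftsj3/Psmc5 and Cbx5/Hnrnpa1.

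The first question was where, among all closely paired ends of the annotation, the mark was called. Of 21887 protein-coding genes, 7048 (32.2%) had an end within 2 kb of an end of another gene, in 4810 pairs. Peaks at paired ends fell on 739 of these pairs (15.4%), 530 for Cre and 561 for GFP. Divergent pairs carried most of them. Of 1005 pairs known to be divergent, 299 (29.8%, exact 95% interval 26.9 to 32.7) had a Cre peak and 326 (32.4%, 29.5 to 35.4) had a GFP peak. In 645 of the 1005 the gene bodies lay apart, and 43.4% of these (39.5 to 47.3) had a peak in either library. In the other 360 the bodies overlapped, and 35.8% (30.9 to 41.0) had one. Tandem pairs, with a finish beside the next start, followed with 69 Cre (7.65%) and 61 GFP (6.76%) of 902. Convergent pairs, with finish against finish, had a Cre peak at 15 (1.43%, 0.802 to 2.35) and a GFP peak at 13 (1.24%, 0.661 to 2.11) of 1049. In all, 409 divergent, 97 tandem and 25 convergent pairs had a peak, and the divergent intervals lay above both others in each library. These intervals, and all others here, cover counting error only. Strand came from the promoter table and was known for 79.9% of genes, so 1681 pairs have no arrangement, of which 179 had a peak.

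**Figure D1:**
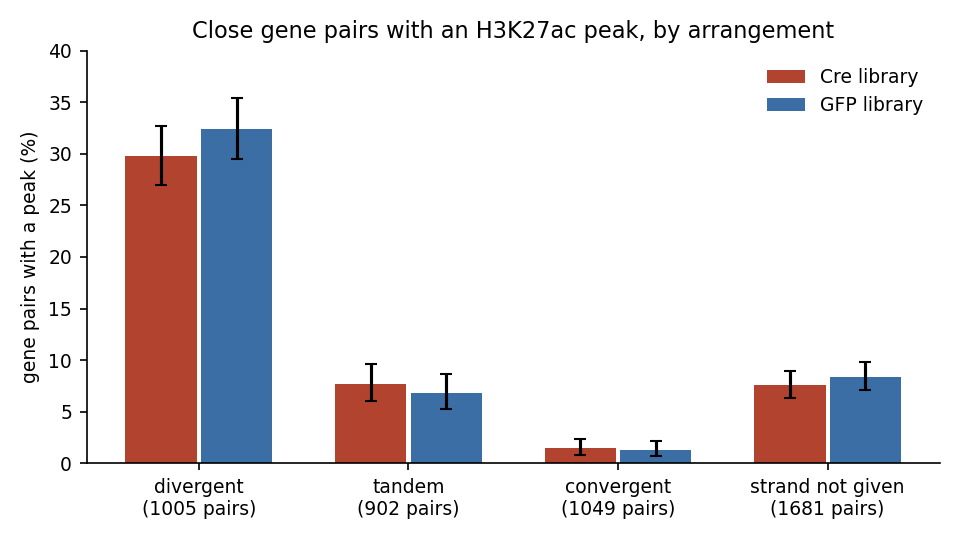
Share of closely paired gene ends with an H3K27ac peak (percent, y axis) in the Cre and GFP libraries, for divergent, tandem and convergent pairs, with exact 95% intervals that cover counting error only. Divergent pairs stand at 29.8% for Cre and 32.4% for GFP, against 1.43% and 1.24% for convergent pairs.

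Among divergent pairs the share with a peak in either library was 45.3% of the 605 with starts 0 to 250 bp apart and 46.8% of the 173 at over 250 and up to 500 bp. It was 31.4% of 118 pairs at up to 1000 bp and 15.6% of 109 at up to 2000 bp, where the window within 1 kb of both starts is itself narrower. Scaled to the sequence searched, peaks at paired ends came to 117 per Mb (108 to 126) in the Cre library and 122 per Mb (113 to 131) in the GFP library over 5.82 Mb. Single-end peaks came to 36.4 per Mb (35.0 to 37.8) and 37.3 per Mb (35.9 to 38.7) over 73.4 Mb. Around divergent starts the density was 252 Cre and 266 GFP peaks per Mb, against 63.4 Cre and 65.9 GFP peaks per Mb around starts with no other gene end near. A divergent window holds 2 starts and an isolated one holds 1, and a density per start was not computed.

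The strongest paired-end peak of the Cre list lay 221 bp from Cenpt, a kinetochore gene, and 238 bp from Thap11, a zinc finger transcription factor gene, at chr8:105854800-105854998. Its fold, the authors' ratio of observed to expected fragments at the summit with 1 added to both, was 24.4 with 48 fragments in the Cre library, and the GFP peak there had fold 15.02 with 42 fragments. Folds of the 2 libraries were computed separately by the authors and rank peaks only within their own list. The pair Mrpl46/Mrps11, which encodes proteins of the large and the small mitochondrial ribosomal subunit, had fold 21.9 with 43 fragments (Cre) and fold 16.7 with 36 fragments (GFP). At Brca1/Nbr1, genes for a DNA repair protein and an autophagy receptor, the strongest peaks had fold 21.6 with 48 fragments (Cre) and fold 18.5 with 35 fragments (GFP). They were not partners, since the Cre peak of fold 21.6 overlapped a GFP peak of fold 17.4 and the GFP peak of fold 18.5 overlapped a Cre peak of fold 7.14. Fen1, the flap endonuclease of replication and repair, with Tmem258 had fold 20.9 with 41 fragments (Cre) and 12.2 with 34 (GFP). At the other 3 pairs the printed peaks of the libraries overlapped. Where a pair had several peaks in a list its strongest is given from here on, and the strongest of each list need not overlap.

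The remaining pairs among the 10 highest of the Cre list were as follows. Rps27a, which encodes a ubiquitin and ribosomal protein fusion, with Clhc1 had fold 20.9 (Cre) and 17.4 (GFP). Atp6v1d, a subunit of the vacuolar proton pump, with Eif2s1, the α subunit of translation initiation factor eIF2, had fold 20.4 with 43 fragments (Cre) and fold 22.1 with 45 fragments (GFP). Cdc45, a component of the replicative helicase, with Ufd1 had 19.9 (Cre) and 15.9 (GFP). Ptcd3, a gene of mitochondrial translation, with Polr1a, the largest subunit of RNA polymerase I, had 19.4 (Cre) and 10.3 (GFP). Cyb5d1/Naa38 had 18.9 (Cre) and 20.01 (GFP), and Ftsj3/Psmc5, a ribosome assembly gene beside a proteasome ATPase gene, had 18.4 (Cre) and 15.02 (GFP). The Cre list's 10 highest peaks all overlapped a GFP peak.

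In the GFP list the highest fold, 23.7 with 46 fragments, lay between Ndufa4, a respiratory chain gene, and Phf14, and the Cre peak there had fold 10.5 with 20 fragments. Cct5, a subunit of the cytosolic chaperonin, with Atpsckmt had fold 6.77 for Cre and 23.6 for GFP. The fragments at the summit were 48 (Cre) and 45 (GFP), and the expected number behind the fold was 6.24 in the Cre library against 0.949 in the GFP library. That pair therefore stood lower in the Cre fold ranking with as many fragments as the highest Cre peak. At Bckdha/Exosc5, genes for a branched-chain keto acid dehydrogenase subunit and an RNA exosome subunit, the Cre peak had 63 fragments, the most of any, fold 7.27 and 7.80 expected, and the GFP peak had 55 fragments and fold 14.8. An expected number above 1.5 times the most frequent value of its list stood behind 21.4% of Cre and 15.8% of GFP paired-end peaks, and behind 22.7% of Cre and 13.4% of GFP single-end peaks.

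Aimp1, a scaffold of the tRNA synthetase complex, with Tbck had fold 11.4 (Cre) and 23.1 (GFP), with 37 and 44 fragments. Pno1, a ribosome assembly gene, with Wdr92 had fold 11.7 with 29 fragments (Cre) and fold 21.5 with 41 fragments (GFP). The pair Hadha/Hadhb, whose products are the α and β subunits of the mitochondrial trifunctional protein of fatty acid oxidation, had fold 14.6 (Cre) and 19.5 (GFP). Mau2, a cohesin loading factor, with Sugp1 had 16.9 (Cre) and 19.5 (GFP), Atg13 with Harbi1 had 17.2 (Cre) and 18.98 (GFP), and Bzw2 with Ankmy2 had 10.5 (Cre) and 18.98 (GFP). All of these peaks overlapped between the libraries as well. Because each group of 10 was picked as the highest of its own list, the other library's lower values at the same pairs are in part set by that choice.

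**Figure D2:**
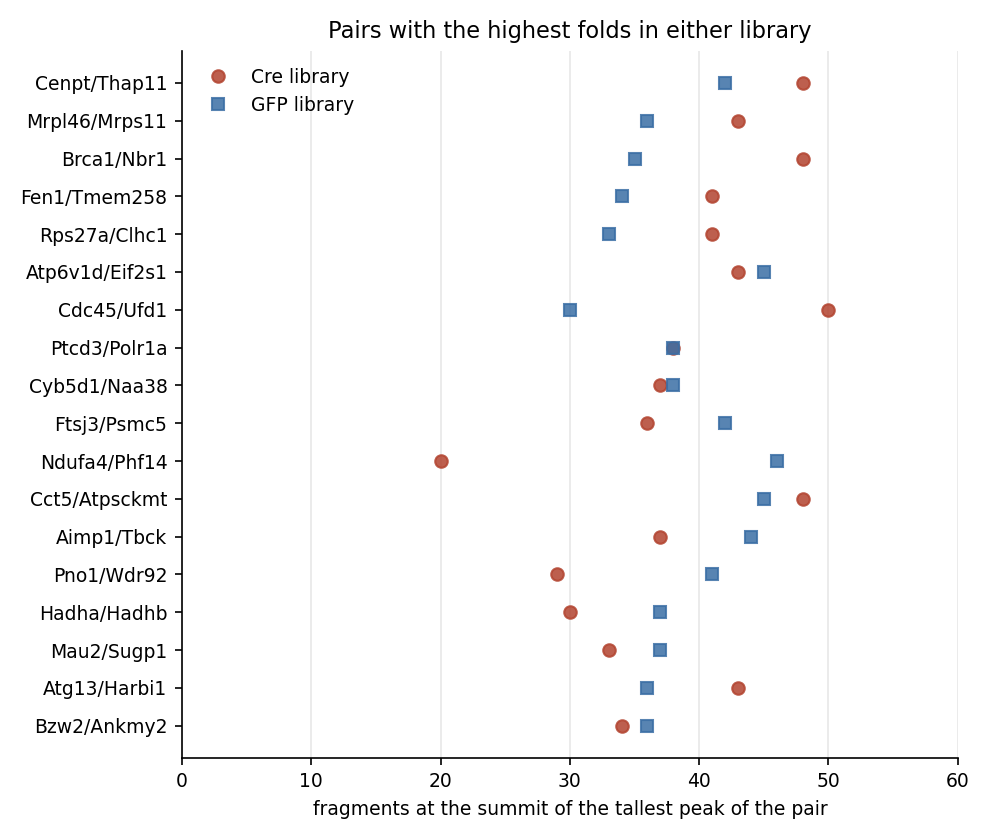
Fragments at the summit (x axis, whole numbers) in the Cre and GFP libraries for the highest-fold gene pairs of each list (y axis), with 1 library each and no error bar. Cct5/Atpsckmt stands at 48 fragments for Cre and 45 for GFP although its folds are 6.77 and 23.6.

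The second question was whether peaks at paired ends were stronger than single-end peaks. With gene ends within 1 kb the middle of the distribution was nearly the same. The median fold was 6.47 for paired-end and 6.38 for single-end Cre peaks (difference 0.0903, 95% interval 0 to 0.512), and 6.67 for both kinds of GFP peak (difference 0, interval 0 to 0.398). That result depended on the window, since with gene ends within 500 bp the difference was 0.996 (0.470 to 0.996) for Cre and 0.665 (0.478 to 1.03) for GFP, and within 2.5 kb it was 0.498 (0.266 to 0.498) for Cre and 0.513 (0.0872 to 0.513) for GFP. The upper end differed. A fold of 10 or more was reached by 85 paired-end Cre peaks (12.5%, 10.1 to 15.2) against 177 single-end Cre peaks (6.63%), and by 97 paired-end GFP peaks (13.7%, 11.2 to 16.4) against 220 single-end GFP peaks (8.03%). Away from gene ends the shares were 2.07% (Cre) and 3.35% (GFP). Peaks at paired ends thus made up 17.5% of Cre and 18.9% of GFP gene-end peaks with a fold under 6, and 32.4% of Cre and 30.6% of GFP gene-end peaks with a fold of 10 or more. By fragments, 41 of 92 gene-end Cre peaks with 30 or more fragments (44.6%) and 41 of 99 such GFP peaks (41.4%) lay at paired ends.

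**Figure D3:**
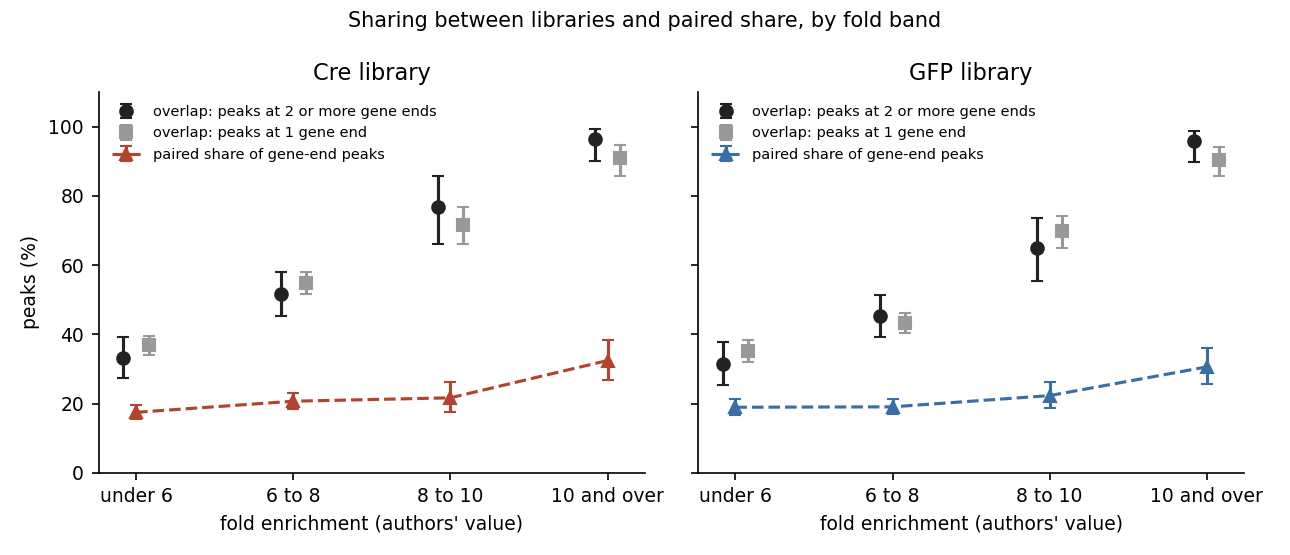
Paired-end peaks among gene-end peaks, and peaks that overlap a peak of the other library (percent, y axes), by band of the authors' fold (x axis) in the Cre and GFP libraries, with exact 95% intervals for counting error. The paired-end share is 17.5% in the lowest and 32.4% in the highest Cre band, and 18.9% and 30.6% in the GFP bands.

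The third question was whether the cultures shared these peaks. A Cre peak at paired ends overlapped a GFP peak by at least 1 bp in 53.0% of cases (360 of 679, 49.2 to 56.8), against 50.7% of single-end Cre peaks. The difference was 2.34 percentage points with an interval of -1.87 to 6.53. For GFP peaks the shares were 50.9% (361 of 709, 47.2 to 54.7) at paired ends and 48.1% at single ends, a difference of 2.83 points with an interval of -1.29 to 6.95. Neither interval excludes 0, and the size of the difference depended on how it was counted. With overlap over at least 50% of both peaks it was 5.54 points (Cre, 1.57 to 9.62) and 5.17 points (GFP, 1.32 to 9.14), with gene ends within 500 bp it was 11.5 points (Cre) and 9.28 points (GFP), and standardised over the bands of fold given below it was -1.83 points (Cre) and -0.754 points (GFP). Read against the background, 59.3% of all Cre peaks and 58.6% of all GFP peaks had no overlapping peak in the other list, as had 49.3% of single-end Cre and 51.9% of single-end GFP peaks. Counting any peak of the other list within 1 kb, the shares were 75.8% for paired-end and 71.5% for single-end Cre peaks, and 73.8% for paired-end and 69.5% for single-end GFP peaks.

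Overlap followed strength. In the bands of fold under 6, 6 to 8, 8 to 10, and 10 and over, 33.2%, 51.6%, 76.9% and 96.5% of paired-end Cre peaks overlapped a GFP peak, against 36.8%, 54.9%, 71.6% and 91.0% of single-end Cre peaks. For GFP peaks the series was 31.4%, 45.2%, 64.9% and 95.9% at paired ends and 35.2%, 43.4%, 69.8% and 90.5% at single ends. The paired-end share was the lower in the lowest band of both libraries and the higher in the highest. All 41 paired-end peaks with 30 or more fragments in each library overlapped a peak of the other (100%, lower limit 91.4%), as did 51 of 51 single-end Cre and 57 of 58 single-end GFP peaks of that size. A peak found in 1 list was therefore mostly a weak one, and the lists cannot separate a region that narrowly missed the peak caller's limit in the other library from one without the mark.

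By gene pair, 312 of 739 (42.2%) had overlapping peaks in both libraries and 54 (7.31%) had peaks in both that did not overlap. Another 173 pairs (23.4%) had a peak in the Cre list alone and 200 (27.1%) in the GFP list alone. Of 2733 genes with a peak at a single end the same 4 outcomes took 40.4%, 7.17%, 24.6% and 27.8%, so the shares of the pairs lie near the background. Divergent pairs with a peak fell into 191 in both, 31 in both without overlap, 82 in the Cre list alone and 105 in the GFP list alone. Of tandem pairs, 30 were in both, 5 in both without overlap, 36 in the Cre list alone and 26 in the GFP list alone.

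The strongest paired-end peaks whose summit had nothing from the other list within 1 kb were of moderate fold. In the Cre list they were led by Pole2/Klhdc1 with fold 9.82, where Pole2 encodes a DNA polymerase ε subunit, and by Madcam1/Tpgs1 and Mitd1/Mrpl30 with 9.46 each. Scamp2/Ulk3 followed with 8.96 and Zdhhc6/Vti1a, whose starts lie 6 bp apart, with 8.59. In the GFP list they were led by Rlbp1/Fanci with fold 10.3 and 19 fragments, where Fanci encodes a protein of the Fanconi anaemia repair pathway. The peak of fold 10.01 at Eaf2/Golgb1 also had no Cre peak within 1 kb, but that pair had a Cre peak of fold 5.98 elsewhere that overlapped a GFP peak, so the pair counted in both lists. Mrpl40/Hira, which pairs a mitochondrial ribosomal gene with the gene for the histone H3.3 chaperone HIRA, had 9.75 with 18 fragments. Cd3eap/Ppp1r13l, Fam126b/Ndufb3, Itpkc/Coq8b and Wdr12/Carf had 9.23 each. The other pairs named here were called in 1 list alone, and of them Rlbp1/Fanci reached a fold of 10, the level at which 96.5% of Cre and 95.9% of GFP paired-end peaks were shared.

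The fourth question was width. Paired-end peaks were slightly narrower than single-end peaks in both libraries. No peak was narrower than 147 bp (Cre) or 144 bp (GFP), so the medians stand not far above a shortest length. The lower quartiles were 153 bp for paired-end and 155 bp for single-end Cre peaks, and 154 and 155 bp for GFP. The median was 179 bp (176 to 186) for paired-end and 191 bp (187 to 195) for single-end Cre peaks, a difference of -12 bp with an interval of -17 to -3.94. It was 187 bp (181 to 194) for paired-end and 200 bp (195 to 206) for single-end GFP peaks, a difference of -13 bp with an interval of -21.5 to -4.40. With peaks within 500 bp merged the intervals took in 0, at -7 bp (-27 to 25.02) for Cre and -8 bp (-38.1 to 17.5) for GFP. Peaks of 400 bp or more were 7.51% of paired-end and 10.1% of single-end Cre peaks, and 7.33% of paired-end and 11.2% of single-end GFP peaks. The widest paired-end Cre peaks were 898 bp at Anxa5/1810062G17Rik, where Anxa5 encodes a calcium-dependent phospholipid-binding protein, and 865 bp at Myd88/Acaa1a, where Myd88 encodes the adaptor of Toll-like receptors. The widest GFP peaks were 1060 bp at Ppp1r15a/Plekha4, a stress-induced phosphatase regulator, and 979 bp at Rps18/Vps52. The longest single-end peaks reached 1734 bp (Cre) and 2169 bp (GFP).

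Several narrow peaks often stood at 1 pair. Of 530 pairs in the Cre list, 113 had 2 peaks and 36 had 3 or more (28.1% together), and of 561 in the GFP list 118 had 2 and 29 had 3 or more (26.2%). Plekhj1/Sf3a2 and Cbx5/Hnrnpa1 had 3 peaks in each library, with highest folds of 14.9 (Cre) and 14.4 (GFP) at Plekhj1/Sf3a2 and 10.9 (Cre) and 11.8 (GFP) at Cbx5/Hnrnpa1. Brca1/Nbr1 had 2 in each, at 34 and 48 fragments in the Cre library and at 35 and 33 in the GFP library. Of divergent paired-end peaks, 21.6% (17.7 to 25.9) for Cre and 20.2% (16.5 to 24.3) for GFP had the summit between the paired starts. That stretch was short, with the starts 136 bp (Cre) and 110 bp (GFP) apart in the median. The share that its length alone would give was not computed.

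Measured from the nearest start, summits of divergent pairs piled up on the gene side. At divergent pairs 67.7% of Cre summits (62.9 to 72.3) and 66.9% of GFP summits (62.2 to 71.4) lay downstream of the nearest start, on its transcribed side. At single starts the shares were 55.6% (53.4 to 57.8) for Cre and 53.8% (51.6 to 55.9) for GFP. By fold band in rising order, 74.5%, 70.3%, 54.9% and 55.9% of divergent against 60.8%, 53.9%, 53.8% and 34.5% of single-start Cre summits lay downstream. For GFP summits the shares were 71.9%, 66.2%, 67.1% and 59.2% at divergent pairs and 57.4%, 56.1%, 47.7% and 37.3% at single starts. The divergent share was the higher in every band of both libraries, by little in the Cre band of fold 8 to 10. The intervals overlapped in that band (40.3 to 68.9 and 47.0 to 60.6) and in the highest Cre band (42.4 to 68.8 and 26.8 to 42.8). They also overlapped in the GFP band of fold 6 to 8 (58.3 to 73.6 and 52.8 to 59.4). Geometry can act either way on the divergent share. Where the bodies of a pair lie apart, sequence upstream of 1 start soon lies inside the other gene, which can raise the share. In 129 of the 409 divergent pairs with a peak the bodies overlap. There, sequence outside the 2 starts is upstream of both, which can lower the share. The size of either effect was not tested.

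Summits of divergent pairs were also nearer to a start, with 44.7% of Cre and 43.2% of GFP summits within 250 bp, against 24.5% and 23.5% at single starts, and the nearer of 2 starts is again nearer by geometry. The distance was shorter in bands of higher fold at both kinds of start. In the 4 fold bands in rising order its median was 456, 288.5, 183 and 137 bp at divergent pairs and 574, 480, 350 and 187 bp at single starts for Cre. For GFP it was 462.5, 322, 239 and 130 bp at divergent pairs and 574, 507.5, 381.5 and 242 bp at single starts. Whether the spacing of the paired starts is alike across the bands was not tested. At Ftsj3/Psmc5 the Cre summit lay 92 bp and the GFP summit 106 bp inside Ftsj3, outside the printed stretch. At Atp6v1d/Eif2s1 the summits lay 103 bp (Cre) and 99 bp (GFP) inside Atp6v1d.

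**Figure D4:**
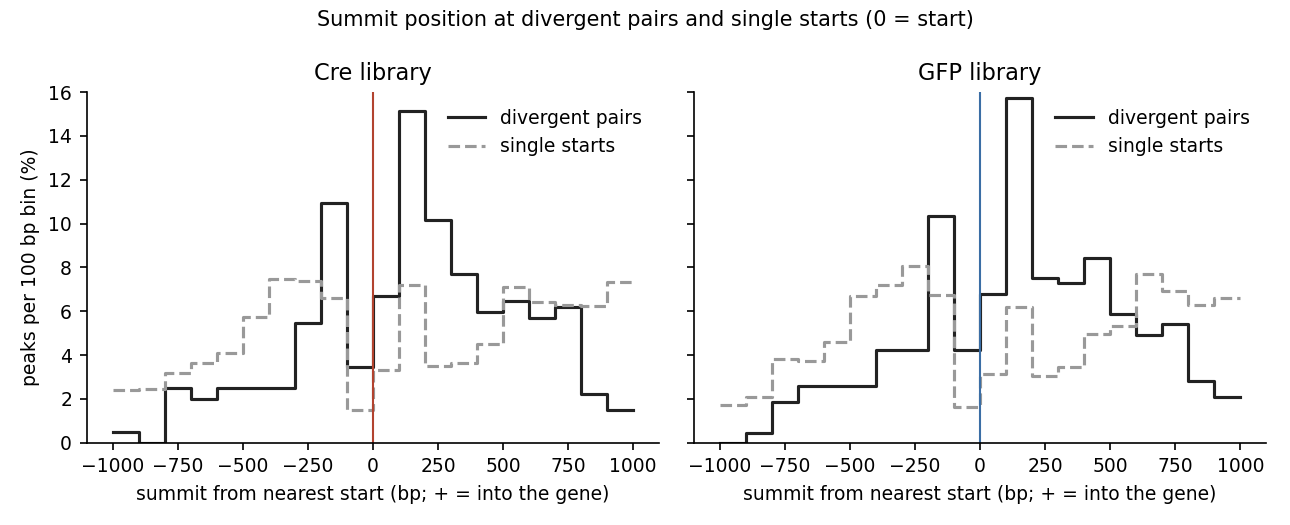
Share of summits (percent per 100 bp bin, y axis) by distance from the nearest start (bp, x axis, positive into the gene) for divergent pairs and single starts in the Cre and GFP libraries. Divergent summits lie downstream of the start in 67.7% (Cre) and 66.9% (GFP) of cases, against 55.6% and 53.8% at single starts.

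Where the cultures shared a paired-end peak, most summits lay close together. Sharing meant overlap by at least 1 bp, and that rule itself limits the distance and favours the same nearest gene. Over the 360 Cre peaks with a GFP partner the summits were 35 bp apart in the median (quartiles 14 and 104 bp, largest 515 bp), and 61.1% were within 50 bp. For 1353 shared single-end peaks the median was 57 bp, with 47.1% within 50 bp. The nearest gene was the same in both libraries for 325 of the 360, the other gene of the pair for 27, and in 8 cases the GFP summit was not at paired ends. Of the 54 pairs with peaks in both lists that did not overlap, 26 had the summits nearest to different genes. Over the 54 pairs the summits were 409 bp apart in the median (145 to 1349 bp), which the lack of overlap in part sets. At Hnrnpa2b1/Cbx3, genes for a splicing regulator and heterochromatin protein HP1γ, the Cre summit stood nearest to Cbx3 with fold 11.5 and the GFP summit nearest to Hnrnpa2b1 with fold 7.70, 644 bp apart. With 1 library a culture this shift has no replicate check.

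Gene groups were compared by the share of their closely paired ends with a peak, against 15.4% of all 4810 pairs. The background for the splits by library is that of all 739 pairs with a peak. Of these, 42.2% were in both lists, 7.31% in both without overlap, 23.4% in the Cre list alone and 27.1% in the GFP list alone. The groups with the largest shares were textbook bidirectional pairs (9 of 23, 39.1%), the cytosolic ribosome (20 of 55, 36.4%, 23.8 to 50.4) and RNA splicing (33 of 91, 36.3%). For the textbook list the nearer background is the 1005 divergent pairs, of which 40.7% (37.6 to 43.8) had a peak. The textbook share (interval 19.7 to 61.5) was not above it. Among ribosomal pairs 13 were shared, 1 had peaks in both without overlap, 3 were called for Cre alone and 3 for GFP alone. Zwilch/Rpl4 had fold 15.4 (Cre) and 18.98 (GFP), and Pidd1/Rplp2 had 14.4 (Cre) and 10.8 (GFP). Of splicing pairs, 18 were in both, 4 in both without overlap, 3 in the Cre list alone and 8 in the GFP list alone. Cdc26/Prpf4, a subunit of the anaphase-promoting complex beside a tri-snRNP protein, had 14.4 (Cre) and 12.3 (GFP). The lists were chosen with earlier results of these data known, and no list was tested. How far a list's share follows from how many of its pairs are divergent was not tested either.

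Mitochondrial and translation genes followed. Pairs with a gene of oxidative phosphorylation had a peak in 24 of 84 cases (28.6%), 10 in both, 2 in both without overlap, 4 in the Cre list alone and 8 in the GFP list alone. Atp5j, an ATP synthase subunit, with Gabpa, the ETS factor known for nuclear-encoded mitochondrial genes, had fold 7.03 (Cre) and 12.8 (GFP). Mitochondrial ribosomal pairs had a peak in 17 of 65 (26.2%), tRNA synthetase pairs in 8 of 24 (33.3%) and translation factor pairs in 12 of 45 (26.7%). In the mitochondrial ribosome group 6 pairs were shared, 2 had peaks in both without overlap, 5 were called for Cre alone and 4 for GFP alone. Lyrm4/Fars2, where Fars2 is the mitochondrial phenylalanyl-tRNA synthetase, had 14.4 (Cre) and 12.3 (GFP), and Txndc9/Eif5b had 8.84 (Cre) and 13.3 (GFP).

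Chaperone pairs had a peak in 16 of 63 cases (25.4%), with 13 shared, 2 called for Cre alone and 1 for GFP alone. Hsp90b1, the Hsp90 of the endoplasmic reticulum, with Ttc41 had fold 16.4 (Cre) and 10.5 (GFP), and Psph/Cct6a had 12.9 (Cre) and 13.9 (GFP). DNA replication and cell cycle pairs had a peak in 13 of 50 (26.0%), vesicle transport pairs in 23 of 97 (23.7%), DNA repair pairs in 14 of 71 (19.7%) and zinc finger pairs in 21 of 109 (19.3%). Wrap53/Trp53, the telomerase cofactor gene beside the gene for p53, had 6.97 (Cre) and 10.3 (GFP). Alg2/Sec61b, a glycosylation enzyme beside a translocon subunit, had 17.2 (Cre) and 18.5 (GFP). Histone pairs had a peak in 8 of 44 (18.2%), with 1 called for Cre alone and 4 for GFP alone, and proteasome pairs in 8 of 47 (17.0%), near the 15.4% of all pairs.

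The lists tied to the tissue, to inflammation or to acetylation had small counts of pairs with a peak. The interval of each list's share took in the 15.4% of all pairs. Membership does not show that a gene, such as Naa50 or Sirt4 below, acts on histones. Pairs with a cartilage or matrix gene had a peak in 8 of 47 cases (17.0%), 3 in both, 4 in the Cre list alone and 1 in the GFP list alone. Rxrb/Col11a2, where Col11a2 encodes a chain of cartilage collagen XI, had fold 6.47 with 12 fragments (Cre) and 5.64 with 10 fragments (GFP). The stromelysin gene Mmp11 with Smarcb1 had a Cre peak alone, with fold 6.97 and 13 fragments. At AU022252/P3h1, where P3h1 encodes a collagen prolyl 3-hydroxylase, a GFP peak of fold 11.8 overlapped a Cre peak whose own summit was not at paired ends. Deacetylase and corepressor pairs had a peak in 2 of 23 cases (8.70%, 1.07 to 28.0). These were Ncor1/Pigl in both libraries, where Ncor1 encodes an HDAC3 corepressor, with fold 5.98 (Cre) and 6.16 (GFP) and 11 fragments in each, and Sirt4/Pxn in the GFP list alone with fold 6.67. Acetyltransferase and BET reader pairs had 2 of 13, with Atp6v1a/Naa50 at 11.3 (Cre) and 8.72 (GFP), chondrocyte transcription factor pairs 1 of 6 and inflammatory signalling pairs 6 of 30.

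The promoters themselves were then read from the RefSeq table, 300 bases each, for 496 genes of divergent pairs with a peak and 639 of divergent pairs with none. Only promoters whose start lay close to the annotated gene end were read, so the 11018 called all promoters here are a part of that table. The median share of G and C was 61.0% with a peak and 62.3% with none, against 60.7% at 1270 single starts with a peak and 54.0% over all 11018 promoters. The observed over expected CpG ratio was 0.866 with a peak, 0.797 with none, 0.810 at single starts with a peak and 0.478 over all promoters. An ETS site (CCGGAAG) was present in 30.6% of divergent promoters with a peak (26.6 to 34.9), 21.8% of those with none, 21.3% of single-start promoters with a peak and 10.7% of all. A GC box (GGGCGG) was in 64.1%, 63.1%, 67.7% and 41.2% of the same 4 sets, a CCAAT box in 38.3%, 43.2%, 39.7% and 40.5%, and a TATA box (TATAAA) in 6.45%, 7.04%, 8.58% and 16.5%. An NRF1 site was in 5.44%, 1.72%, 2.76% and 1.30%, and a YY1 site in 5.44%, 2.504%, 2.36% and 1.19%. The other words searched were an E-box (CACGTG) with 10.5%, 11.6%, 11.7% and 7.54%, a CRE (TGACGTCA) with 3.43%, 2.82%, 4.65% and 2.26%, an AP-1 site (TGANTCA) with 3.43%, 4.23%, 6.06% and 7.82%, and a ZNF143 site with 1.01%, 0.626%, 0.787% and 0.336%. Both strands were searched, each motif was counted on its own even where matches overlap, and the windows of a close divergent pair overlap, so a site can count for both genes. Within the stretches between starts at most 250 bp apart, an ETS site was in 11.6% (7.33 to 17.2) of 181 with a peak. It was in 8.74% (5.26 to 13.5) of 206 with none, and these intervals overlapped. A match to these letters describes the sequence and shows no binding.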

How the data were processed

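H3K27ac was profiled in 1 Cre and 1 GFP library. The 2 input libraries of the study were not analysed here. Per the submitters' processing notes, the tools were BWA, Picard, SICER and bcl2fastq 1.8.4, and mm10 was the build. By their names the deposited lists are MACS2 output, 1 per library, and their version, settings and control were not stated in the labels or headers. A deposited row holds the authors' score, a fold enrichment (a ratio of observed to expected fragments at the summit), a −log10 p-value and a −log10 q-value. These deposited values were used to describe, rank and filter peaks within a list only.

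Fragments observed and expected at each summit were solved from the deposited fold and −log10 p-value under a Poisson tail. Only whole observed numbers were tried. The best of them gave back the deposited −log10 p-value within 0.001 for 100% of peaks in both lists. Read totals were not stated. Counts of this size leave wide error at a single peak.

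Gene ends were those of 21887 protein-coding genes in a RefSeq table of GRCm38.p6, and strand came from its promoter table, known for 79.9%. A summit is the row's start plus its offset, and positions are 1-based. A pair was counted in both lists when one of its peaks overlapped a peak of the other list by at least 1 bp. With 1 library a group no test was run. Shares have exact Clopper-Pearson intervals, differences of shares have Newcombe intervals, and medians have binomial order intervals, all at 95%. The steps were tested on simulated data with Python 3.11.15, numpy 2.4.6, pandas 2.3.3 and scipy 1.17.1.

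The pairs named are the 10 of highest fold in each list, the 10 of highest fold in 1 list with no peak of the other within 1 kb, up to 4 for each of 19 gene lists, the 5 widest, loci with the most genes, those nearest the 1 kb limit, and up to 8 divergent pairs for sequence. Members and lists were chosen with earlier results of these data known. The bands of fold and of fragments, pairs ranked by fragments (Bckdha/Exosc5), the motif letters and the examples of shifted summits were chosen after values were seen, and the letter case of the tRNA synthetase list was corrected after it had matched few genes.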

Additional observations from a re-analysis of the deposited data

How the results depend on the processing

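No paired analysis was possible because each culture had 1 library. Over 10 alternatives, 2 of them chosen after seeing the data, 72 values were recomputed, of which 53 stayed within the main interval or within 1.5 times the main count and 19 moved. With a gene-end window of 500 bp the share of overlapping peaks at paired minus single ends was 11.5 points (Cre) and 9.28 points (GFP), the difference in median fold was 0.996 (Cre) and 0.665 (GFP), and pairs numbered 188 in both lists, 81 for Cre alone and 99 for GFP alone. With 2.5 kb the GFP share difference was -1.71 points, the GFP fold difference 0.513, and pairs numbered 501, 299 and 326. Among the 5000 peaks of highest −log10 p-value in each list the width difference was -21 bp (Cre) and -27 bp (GFP), the GFP share difference 7.21 points, the GFP fold difference 0.513, and pairs numbered 197 in both lists and 120 for GFP alone. With peaks within 500 bp merged the GFP fold difference was 0.513. Standardised over the 4 fold bands, the share difference was -1.83 points (Cre) and -0.754 points (GFP), so the sign of that difference depends on the setting. The cause of these moves was not tested. Median width was lower at paired ends in both lists under the 7 alternatives that bear on width, but with peaks within 500 bp merged the intervals of that difference (-27 to 25.02 bp for Cre, -38.1 to 17.5 bp for GFP) took in 0. At 7 to 63 fragments a summit, a peak missing from 1 list was not shown to be absent from that culture.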

Other observations

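Some summits had 3 gene ends within 1 kb. The strongest in both lists stood at Cyb5d1/Naa38/Tmem88, where a second peak lay close by, with folds 18.9 and 8.96 in the Cre library and folds 20.01 and 11.3 in the GFP library. At Bysl/Med20/Gm20517, with a gene for ribosome assembly and one for a Mediator subunit, the highest fold was 15.4 (Cre) and 9.23 (GFP), and the peaks overlapped. At Rad17/Taf9/Ak6, where Taf9 and Ak6 share a start, the peak of fold 8.72 was in the GFP list alone, and at Tomm6/Frs3/Prickle4 the peak of fold 8.47 was in the Cre list alone.

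Tandem pairs were few but not all weak. Spag7/Camta2 had fold 11.5 (Cre) and 15.4 (GFP), and Mip/Timeless, where Timeless encodes a replication fork protein, had 11.95 (Cre) and 13.5 (GFP). Myl6/Myl6b, which encode myosin light chains, had fold 12.5 with 31 fragments in the Cre list. Among 21 Cre and 15 GFP peaks at convergent pairs, 0 reached a fold of 10 in either list. The highest were Niban2/Lrsam1 with 7.97 (Cre) and Ttll9/Pdrg1 with 9.49 (GFP). These tandem and convergent examples were chosen after their values were seen.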
